A study of Anolis carolinensis with 2 samples.

Results

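Overlapping genes were examined in the green anole lizard (Anolis carolinensis) in the RNA of 2 whole embryos. They were chosen by position and not by level, as the genes whose locus, in the deposited table of the embryo with 28 somite pairs, held 2 or more genes. Genes on linkage groups were left out, which removed 12. The choice gave 2052 of 21085 genes (9.73%), in 928 shared loci, and the table of the embryo with 38 somite pairs gave the same genes. Each of the 2052 genes overlapped at least 1 other. They were set against the 18755 genes that stood alone in their locus off the linkage groups.

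The later embryo had 38 somite pairs and the earlier one 28. Somites are segments of mesoderm laid down in pairs from head to tail, so counting them stages an embryo. Both were collected 0 to 1 days after the egg was laid, and their stated mouse counterparts are 10.5 days (38 somite pairs) and 9.5 days (28 somite pairs) after conception. Each stage was 1 library of a whole embryo, so stage, embryo and library cannot be told apart, no value has a replicate error, and no p-value was computed. No genotype, strain or treatment is named for either embryo.

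Genes can overlap in 2 ways. In a nested pair, the whole span of an inner gene lies between the ends of an outer gene, usually within an intron, a stretch that is cut out of the outer gene's RNA. In a partly overlapping pair, the ends of neighbouring genes run past each other. In vertebrates many small RNAs, such as small nucleolar RNAs, which guide the modification of ribosomal RNA, and many microRNAs, which repress messenger RNAs, are made from introns of host genes. In mammals a number of the hosts of small nucleolar RNAs encode ribosomal proteins or translation factors. The files do not pair the identifiers with names or RNA classes, so no gene below is given a name or a role.

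Nested pairs made up nearly all of the overlaps. Of 1130 overlapping pairs, 1095 were nested (96.9%) and 35 overlapped in part. The nested pairs joined 1089 inner genes with 908 outer genes, and 6 genes were both. Of the outer genes, 786 held 1 inner gene and 122 held more, up to 11. Most loci were small: 799 of the 928 (86.1%) held 2 genes, 93 held 3 and 25 held 4, and the largest held 12. The 70 genes of partly overlapping pairs shared between 13 and 34154 bases with their partner, with a median of 709. Chromosomes 1 to 6 carried 57.4% of the overlapping genes and 49.7% of the genes alone in their locus.

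The library at 38 somite pairs had 12908652 mapped fragments and the library at 28 had 13859445, recovered from the deposited values. All listed genes held 43.4% of the fragments at 38 somite pairs and 52.1% at 28, and the overlapping genes held 5.11% and 6.24%. Levels are given in FPKM, fragments per kilobase of transcript scaled to the mapped total, which sets genes of different length on 1 scale. A gene is called detected here at 1 FPKM or more. Detected overlapping genes numbered 762 (37.1%) at 38 somite pairs and 746 (36.4%) at 28, against 47.1% and 46.7% of all genes. At 38 somite pairs 1171 overlapping genes (57.1%) were listed at 0, and at 28 the number was 1182 (57.6%). Values below 10 fragments were rarely listed (16 of 876 overlapping genes above 0 at 38 somite pairs, and 19 of 865 at 28), so a listed 0 can hide up to 9 fragments. The files used here give no strand, and a strand-marking step is not stated for the kit. Reads from partners on opposite strands therefore cannot be told apart.

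Most inner genes were short models without introns, and almost none were detected. The 1089 inner genes included 775 (71.2%) with a transcript under 200 bases, of which 754 (97.3%) were a single block. Their lengths piled up within a narrow window: 391 of the 775 (50.5%) were 118 to 123 bases long, and the commonest length, 119 bases, occurred in 132 models. The 2395 models under 200 bases that stood alone in their locus showed the same pile, with 1343 (56.1%) in that window and 505 of 119 bases. Of the 775 inner models, 3 were listed above 0 in either library, against 57 of the 2395 lone models. At these lengths the floor was high, since 10 fragments over the full 119 bases come to 6.51 FPKM at 38 somite pairs and 6.06 FPKM at 28. The deposited levels rest on an effective length, which can be shorter than the transcript, so the floor in them can be higher than these figures. A model of 179 bases had 11.2 FPKM from 10 fragments at 38 somite pairs.

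Longer inner genes were detected more often, up to 2000 bases. Among inner genes of 200 to under 500 bases, 9.91% of 111 were detected at each stage, against 38.2% at 38 somite pairs and 39.0% at 28 for lone genes of that length. These groups differ in make-up, since 67 of the 111 inner genes were a single block, against 505 of 2397 lone genes. The part of this in detection was not tested. From 500 to under 1000 bases the shares were 35.5% at 38 somite pairs and 32.3% at 28 for 93 inner genes, against 51.6% and 50.6% for lone genes. From 1000 to under 2000 bases they were 60.8% and 50.6% for 79 inner genes, against 58.0% and 56.6%. Of the 25 inner genes of 2000 bases or more, 36% were detected at each stage, against 66.2% and 67.0% of lone genes. Inner genes were thus detected less often than lone genes in every class from 100 bases up, except from 1000 to under 2000 bases at 38 somite pairs.

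**Figure D1:**
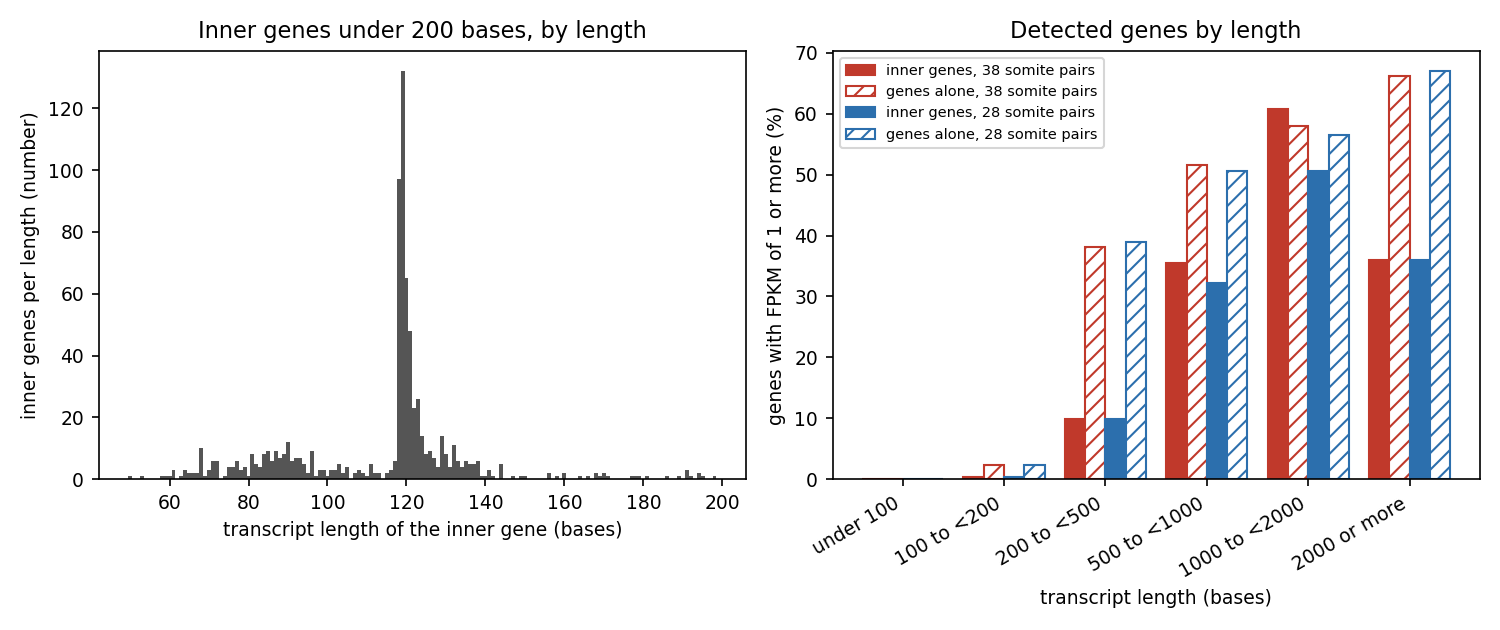
Left, number of inner genes at each transcript length in bases, for inner genes under 200 bases, with a peak at 119 bases (132 models). Right, percent of genes with 1 FPKM or more by transcript length in bases, for inner genes (filled) and genes alone in their locus (hatched) at 38 (red) and 28 (blue) somite pairs; inner genes of 200 to under 500 bases reached 9.91% at both stages, against 38.2% and 39.0% of lone genes.

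The 3 short inner models above 0 all lay in outer genes that were themselves detected. A model of 181 bases on chromosome 1 (64214370 to 64214550) had 28.1 FPKM from 22 fragments at 38 somite pairs and 21.4 FPKM from 18 fragments at 28, within an outer gene of 94.1 and 149 FPKM. A model of 194 bases on chromosome 1 (63301506 to 63301699) was listed at 0 at 38 somite pairs and had 17.8 FPKM from 18 fragments at 28, and its outer gene had 572 and 752 FPKM. A model of 179 bases on scaffold GL343321.1 (116019 to 116197) had 11.2 FPKM from 10 fragments at 38 somite pairs and was listed at 0 at 28. The first of these was above 0 at both stages, and the other two rest on fragment numbers near the floor at 1 stage.

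Outer genes were longer and more often detected than genes alone in their locus. Their median span was 41900 bases, against 13231.5 for lone genes with more than 1 exon, and their median transcript was 1783.5 bases long, against 1176. At 38 somite pairs 70.0% of outer genes were detected, and 69.5% at 28, against 56.3% of the lone genes at each stage. The median outer gene had 4.21 FPKM at 38 and 4.76 FPKM at 28 somite pairs, and the median lone gene 1.75 and 1.86. The gap depended on span. Under 10 kb 66.4% and 68.2% of outer genes were detected, against 43.3% and 42.6% of lone genes. From 100 kb up the shares were 71.0% and 69.9%, against 73.7% and 71.5%. In both spans between, the share of outer genes was the higher one at each stage. From 10 to under 30 kb the medians were 4.25 and 4.50 FPKM for 237 outer genes, against 2.55 and 2.98 for lone genes. Among genes spanning 30 to under 100 kb the medians were 3.75 and 4.63 FPKM for 378 outer genes, against 3.84 and 4.49 for lone genes. For 186 outer genes of 100 kb or more they were 3.48 and 4.09 FPKM, against 3.43 and 4.42. Under 10 kb, 107 outer genes had medians of 13.9 FPKM at 38 somite pairs and 20.2 at 28, while the median of 6166 lone multi-exon genes of that span was 0 at both stages.

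The level of the outer gene differed between length classes of the model inside it, but not in order of length. The length classes used here were chosen after the values were seen, and an outer gene with several inner genes can stand in more than 1 class. The 194 outer genes with an inner model shorter than the 118 to 123 base window had medians of 6.63 FPKM at 38 somite pairs and 8.15 at 28. The 370 outer genes of models within the window had 3.36 and 3.76 FPKM, and the 141 outer genes of models above the window but under 200 bases had 8.04 and 9.54 FPKM. The 261 outer genes of inner genes of 200 bases or more had 2.51 and 3.12 FPKM. A level of 100 FPKM or more was found for 13.9% (38 somite pairs) and 16.5% (28) of the first group and for 15.6% and 19.9% of the outer genes of models above the window, against 4.05% and 4.86% of the group of the window and 3.60% and 4.03% of 15026 lone genes with more than 1 exon. Within the first group, the 51 outer genes of models of 60 to 79 bases had the highest medians of the bins examined, 30.8 and 38.7 FPKM. The bin of 80 to 99 bases (104 outer genes) had 4.17 and 5.38 FPKM, and that of 100 to 117 bases (46 outer genes) 7.37 and 7.36 FPKM. The bins also differed in the median span of the outer genes, which was 16423, 34101 and 44359.5 bases in order of model length.

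**Figure D2:**
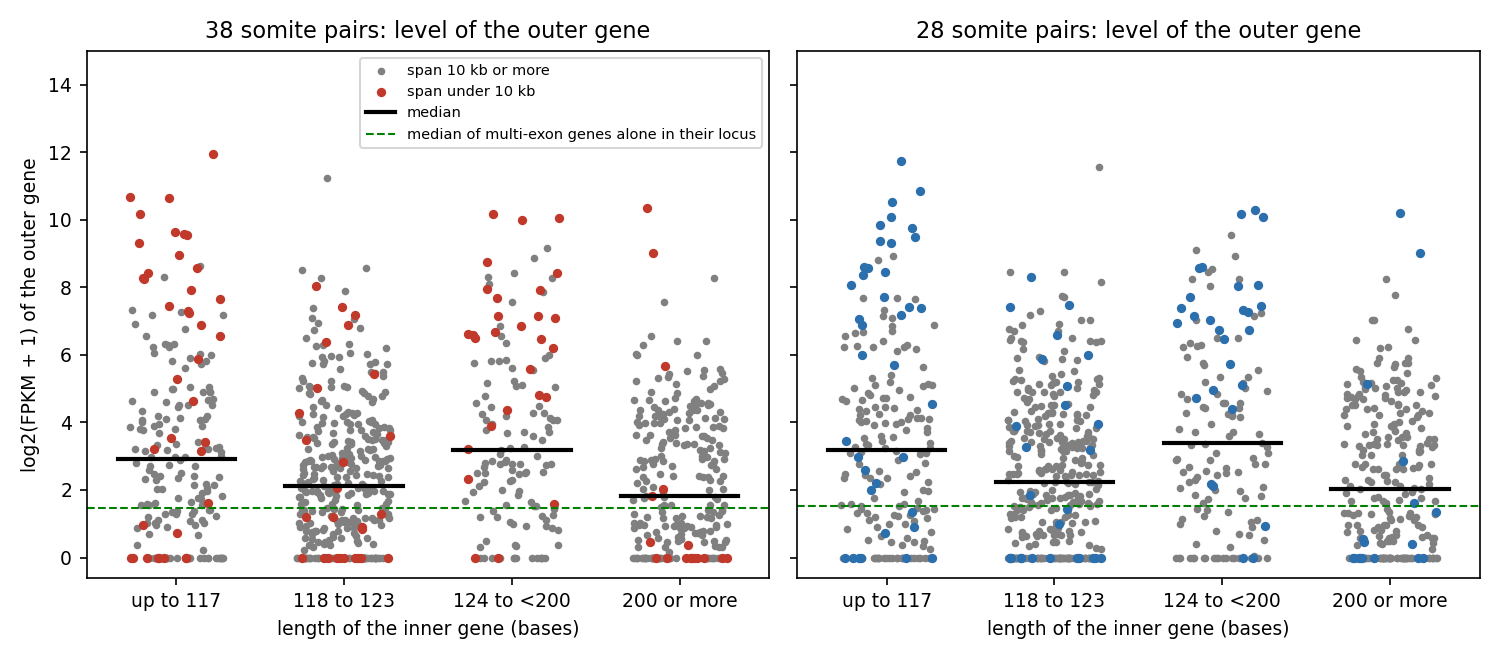
Each point is an outer gene, plotted as log2(FPKM + 1) by the length of its inner gene in bases, at 38 (left) and 28 (right) somite pairs; coloured points span under 10 kb, black bars are medians and the dashed line is the median of multi-exon genes alone in their locus. Compact outer genes of models below the 118 to 123 base window reach 3955 FPKM at 38 somite pairs and 3419 at 28.

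Compact outer genes of short models on either side of the window held many of the most abundant overlapping transcripts. The 38 outer genes that spanned under 10 kb and held a model shorter than the window had medians of 105 FPKM at 38 somite pairs and 125 at 28, and 19 (50%) and 20 (52.6%) of them reached 100 FPKM. Another 8 were listed at 0 at 38 somite pairs and 6 at 28. The 28 compact outer genes of models above the window but under 200 bases had medians of 96.4 and 125 FPKM, and 13 (46.4%) and 17 (60.7%) reached 100 FPKM. Of the 27 compact outer genes of models within the window, 4 and 3 reached 100 FPKM, with medians of 1.29 and 1.71. Of the 17 compact outer genes of inner genes of 200 bases or more, 2 did so at each stage. Among the 6166 compact lone genes with more than 1 exon, 4.43% and 4.48% reached 100 FPKM. Outer genes of the shortest models that spanned 10 kb or more numbered 156 and had medians of 4.44 and 6.85 FPKM, against 3.03 and 3.50 for 8860 lone genes of that span. At that span the level was thus much closer to that of lone genes than among compact genes.

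The highest compact outer gene of the shortest models was a gene on chromosome 5 (132534696 to 132541499) with a transcript of 795 bases, which held a model of 67 bases and had 3955 FPKM at 38 and 3419 FPKM at 28 somite pairs. A gene on chromosome 4 (93546640 to 93556460), which held a model of 96 bases, had 1644 and 1861 FPKM. The next, on contig AAWZ02039090 (1432 to 5401), held a model of 66 bases, with levels of 1591 and 1476 FPKM. The models inside all 3 genes were listed at 0 in both libraries. That does not set them apart, since no model under 100 bases was above 0 in either library, among 186 inner and 379 lone ones. A gene on scaffold GL343306.1 (1040207 to 1045766) held a model of 71 bases and had 1139 FPKM at 38 and 1090 FPKM at 28 somite pairs. On scaffold GL343355.1 (503203 to 511103) a gene that held models of 84 and 86 bases had 768 and 925 FPKM. These levels differed little between the stages. Over the 30 compact outer genes of the shortest models that were detected in either library, the log2 difference of 38 minus 28 somite pairs had a median of -0.11, with 1 past 2-fold.

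Most pairs had 1 detected partner at most. Of the 1130 pairs, 93 (8.23%) had both genes at 1 FPKM or more in at least 1 library each, called expressed below. These were 85 of the 1095 nested pairs (7.76%) and 8 of the 35 partly overlapping pairs (22.9%). In 711 pairs (62.9%) at 38 somite pairs and 695 (61.5%) at 28, 1 partner was listed at 0 and the other was detected. In the nested pairs it was the inner gene that was at 0 in 680 pairs at 38 somite pairs and 668 at 28, and the outer gene in 20 and 17. Most of this came from inner models under 200 bases, which were the gene at 0 in 575 and 564 pairs. With an inner gene of 200 bases or more, the inner gene was at 0 in 101 and 100 pairs and the outer gene in 19 and 16. Both partners were at 0 in 217 pairs at 38 somite pairs and 226 at 28.

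Over the nested pairs with both partners expressed, the inner gene was more often the lower one. This was seen in 54 of 82 nested pairs with an inner gene of 200 bases or more at 38 somite pairs (65.9%) and in 57 at 28 (69.5%). Inner genes of these pairs had medians of 3.05 FPKM at 38 somite pairs and 3.14 at 28, and outer genes 11.4 and 13.4. The median gap, taken as log2(FPKM + 1) of the inner minus the outer gene, was -1.01 at 38 somite pairs and -1.75 at 28. The choice of pairs bears on this: among the 31 nested pairs with both partners at 5 FPKM or more, the inner gene was lower in 51.6% at each stage. In the 9 pairs with 100 fragments or more in every value, 8 of them nested, the order was mostly the reverse. There the inner gene, or the gene of shorter span, was lower in 1 pair at 38 somite pairs and 2 at 28. Its median gap to the partner was 2.48 and 1.78. The rule of 100 fragments bears on this order, because a shorter transcript needs a higher FPKM to give as many fragments. In each of these pairs the inner gene, or the gene of shorter span, had the shorter transcript. The reversed order is thus favoured by the choice of pairs, and the part of that choice was not tested. Over all 93 pairs the size of the gap had a median of 1.72 at 38 somite pairs and 2.41 at 28, and it was at least 10-fold on that scale in 21 and 28 pairs.

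**Figure D3:**
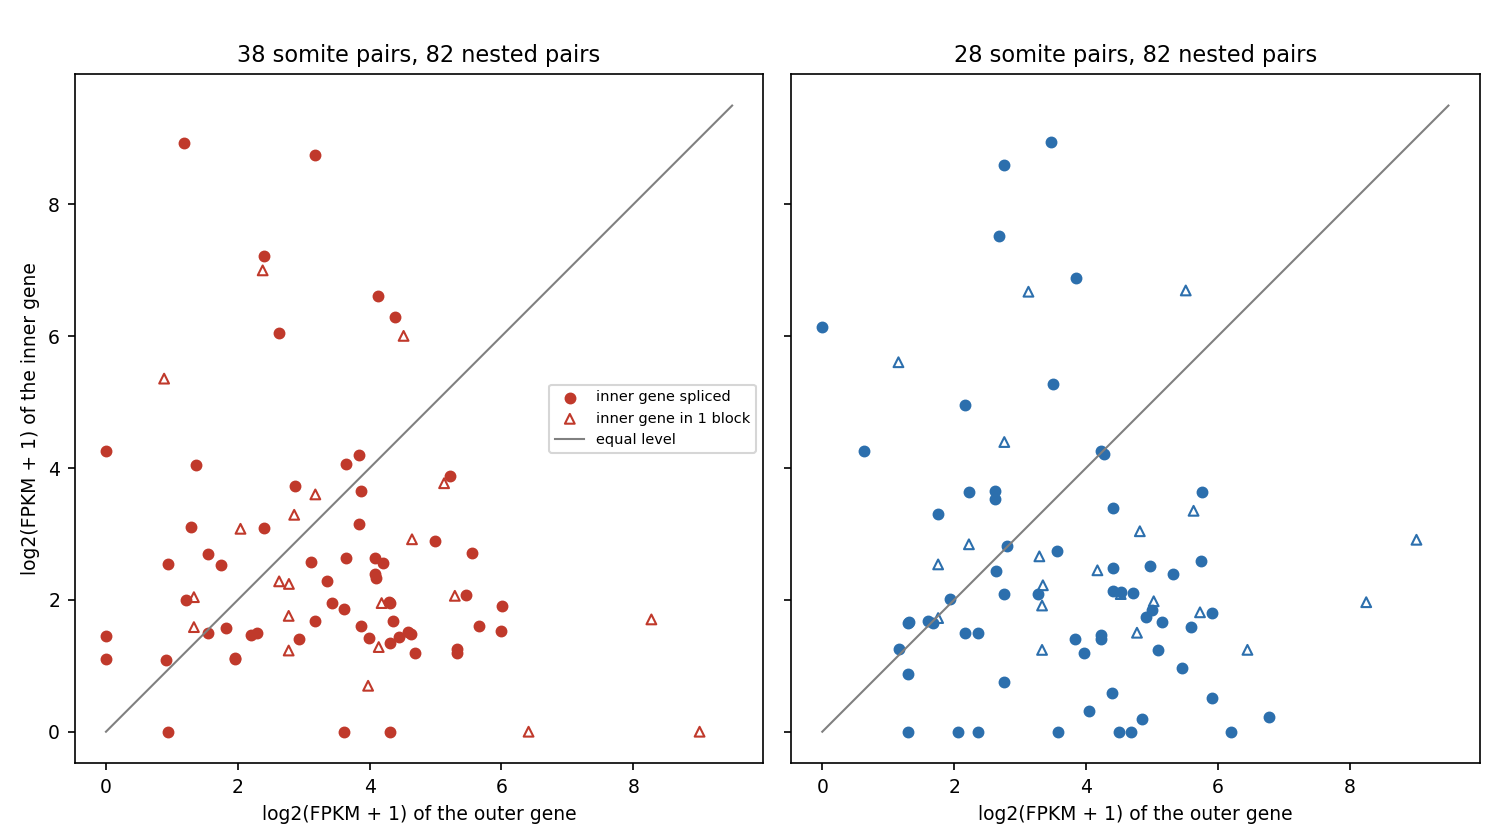
Level of the inner gene against level of the outer gene, both as log2(FPKM + 1), for the 82 nested pairs with both partners expressed and an inner gene of 200 bases or more, at 38 (left) and 28 (right) somite pairs; filled circles are spliced inner genes, open triangles inner genes in 1 block, and the line marks equal levels. The inner gene lies below the line in 54 pairs at 38 somite pairs and 57 at 28.

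In both directions the gaps could be wide. On chromosome 3 a spliced inner gene (144519123 to 144523561) had 487 FPKM at 38 and 491 FPKM at 28 somite pairs, within an outer gene (144493130 to 144561916) of 1.27 and 10.1 FPKM. The inner gene was far above its host at both stages. On chromosome 2 an inner gene (112667925 to 112671412) had 431 FPKM at 38 and 386 FPKM at 28 somite pairs, and its outer gene (112539559 to 112848836) had 8.04 and 5.78. The opposite order was seen on chromosome 5, where an inner gene of 233 bases (29326403 to 29326635) was listed at 0 at 38 somite pairs and had 6.53 FPKM at 28, within an outer gene (29323391 to 29333295) of 513 and 516 FPKM. Its 28 somite pair value rests on 11 fragments.

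On scaffolds GL343725.1 and GL343324.1 partners had similar levels. On scaffold GL343725.1 the inner gene (245614 to 251528) had 15.7 FPKM at 38 and 17.6 FPKM at 28 somite pairs, and the outer gene (238677 to 254715) had 11.5 and 18.3. Fragment numbers there were not whole, with 146.2 and 175.3 in the inner gene and 339.8 and 575.7 in the outer. The levels of these partners may thus not be separate readings, and a division of fragments between them was not tested. On scaffold GL343324.1 the inner gene (860484 to 861331) had 17.4 and 18.2 FPKM and the outer gene (824088 to 879229) 13.4 and 17.7. A pair on chromosome 1, named for the level of its lower partner, had a wider gap, 2.76 as the mean of the 2 libraries. Its inner gene (126564040 to 126578403) had 96.5 and 118 FPKM, and the outer gene (126546387 to 126600869) 16.5 and 13.5.

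Partly overlapping pairs were few. Of the 35, 9 had both genes at 0 in both libraries, 16 had 1 gene at 0 in both libraries, 8 had both genes expressed and 2 fell in none of these classes. In those 8 the gene of shorter span was the lower one in 4 pairs at each stage, and the size of the gap had a median of 2.23 at 38 somite pairs and 1.87 at 28. On scaffold GL343207.1 the genes share 951 bases. The shorter (1525837 to 1549073) had 63.8 FPKM from 1792 fragments at 38 somite pairs and 126 FPKM from 3819 fragments at 28, and the longer (1548123 to 1668582) had 8.77 and 14.9 FPKM from 886 and 1785 fragments. Both were lower at 38 somite pairs, with fragment ratios per mapped fragment of 0.50 (exact 95% interval 0.48 to 0.53) and 0.53 (0.49 to 0.58).

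On chromosome 5 a pair sharing 853 bases had 4.90 FPKM at 38 and 5.92 FPKM at 28 somite pairs in the gene of shorter span (33532004 to 33544496), and 33.3 and 41.0 in the longer (33473706 to 33532856). The gene of shorter span had 54.3 and 70.3 fragments, which are not whole numbers. A second pair on chromosome 5 shared 340 bases, with 8.44 and 12.1 FPKM in the shorter gene (138549613 to 138567147) and 11.3 and 14.2 in the longer (138491788 to 138549952). On chromosome 3 the outer gene of 1.27 and 10.1 FPKM named above also overlapped a neighbour (144530295 to 144562184) by 31622 bases, and that neighbour had 14.8 FPKM at 38 and 25.4 FPKM at 28 somite pairs. The widest gap was on chromosome 4, where genes sharing 34154 bases had 112 FPKM at 38 and 104 FPKM at 28 somite pairs in the shorter gene (40276698 to 40321276) against 1.13 and 2.01 in the longer. Both genes were lower at 38 somite pairs in 5 of the 8 pairs, as deposited, where the median difference of all expressed genes was -0.18.

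**Figure D4:**
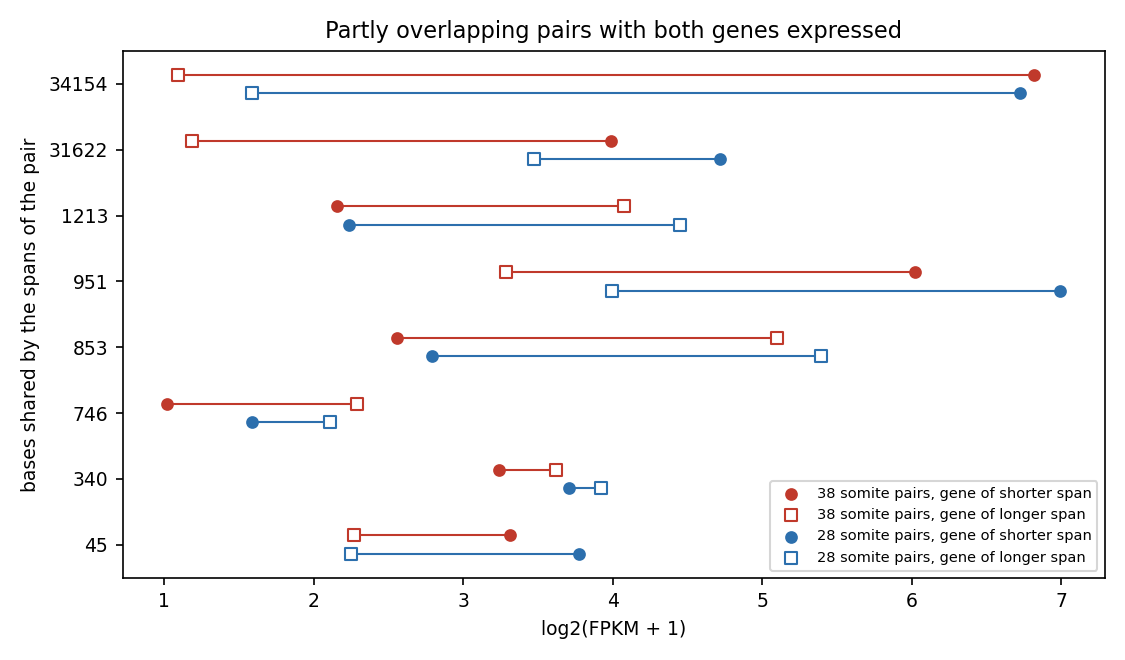
Levels as log2(FPKM + 1) of both genes of the 8 partly overlapping pairs with both expressed, ordered by the number of bases their spans share; filled circles are the gene of shorter span, open squares the gene of longer span, red is 38 and blue 28 somite pairs. The widest gap is in the pair sharing 34154 bases, with 112 and 104 FPKM in the shorter gene against 1.13 and 2.01 in the longer.

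Fragment numbers were whole less often where several genes of a locus were above 0. Below 100 fragments, 86.9% of 405 overlapping genes at 38 somite pairs (exact 95% interval 83.2 to 90.0) and 88.6% of 367 at 28 (84.8 to 91.6) had a whole number within 0.02, against 92.3% and 92.8% of lone genes. In loci with 1 gene above 0 the shares were 93.5% and 92.9%. In loci with 2 or more genes above 0 they were 72.9% of 129 (64.3 to 80.3) and 80.2% of 126 (72.1 to 86.7). Of 81 such loci at 38 somite pairs and 68 at 28 with under 1000 fragments, all genes were whole in 46 at each stage. In 29 loci at 38 somite pairs and 18 at 28, 1 gene held a fraction. In 6 and 4 loci 2 or more genes did, and the sum over the locus was whole in 2 and 1 of these. Fractions also occurred in lone genes, and whether they come from a division of fragments between partners was not tested.

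Stage differences of the overlapping genes were close to those of all genes. The log2 difference, 38 minus 28 somite pairs of log2(FPKM + 1), had a median of -0.22 over the 809 expressed overlapping genes, with quartiles of -0.54 and 0.16, and of -0.18 over all 10783 expressed genes. With all genes centred on a median of 0, which takes a factor of 1.15 on the 38 somite pair values, the overlapping genes had a median of -0.050. Outer genes had a median of -0.24 (669 genes) and inner genes of 200 bases or more -0.07 (112 genes), as deposited.

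An expressed gene was called higher at a stage where the 2 levels were 2-fold or more apart and their deposited intervals lay clear of each other. Of the expressed overlapping genes, 7 (0.865%) were called higher at 38 somite pairs, against 1.55% of all expressed genes, and 9 (1.11%) were called higher at 28, against 1.94%. Both shares were below those of all genes, as deposited. With 38 somite pairs scaled to equal sums of FPKM, or to a median difference of 0 over all expressed genes, 8 overlapping genes were called higher at 38 somite pairs and 4 at 28. The shares of all expressed genes under these scalings are not given here, so the scaled counts cannot be set against all genes. All 7 genes higher at 38 somite pairs were listed at 0 at 28, and 3 of the 9 genes higher at 28 were listed at 0 at 38. Over all genes this held for 117 of 167 and 112 of 209 called genes. An interval of FPKM plus or minus 2 square roots has no width at a listed 0, though that 0 can hide up to 9 fragments. With the 2-fold difference alone, 50 overlapping genes (6.18%) were higher at 38 somite pairs, against 8.58% of all, and 52 (6.43%) were higher at 28, against 9.2%. By that count inner genes passed in 19 and 16 of 116 cases (16.4% and 13.8%) and outer genes in 31 and 34 of 669 (4.63% and 5.08%). Detected inner genes had lower levels than their hosts, with medians of 3.05 FPKM against 11.4 at 38 somite pairs in the pairs above, and the part of level in that contrast was not tested. By 2-fold alone, the other library was listed at 0 for 10 of the 19 and 10 of the 16 inner genes. For outer genes this held for 19 of the 31 and 9 of the 34. Where both libraries had 10 fragments or more and the exact interval of the fragment ratio lay apart from 1, 33 of 749 overlapping genes (4.41%) were at least 2-fold higher at 38 somite pairs, against 5.76% of all genes, and 59 (7.88%) were higher at 28, against 8.95%. By that rule inner genes passed in 9 of 89 cases in each direction (10.1%), and outer genes in 25 and 50 of 639 (3.91% and 7.82%).

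The largest of the 7 genes in fragments, on chromosome 4 (89183883 to 89280512), had 4.17 FPKM from 46 fragments at 38 somite pairs and was listed at 0 at 28. Another on chromosome 4 (24482988 to 24493834) had 5.76 FPKM from 31 fragments, and one on chromosome 3 (51005474 to 51127017) had 4.76 FPKM from 23, both listed at 0 at 28. Taken against the 10 fragments below which values were rarely listed, these come to ratios of 4.94, 3.33 and 2.47. ENSACAG00000000820, an outer gene on chromosome 4 (68480488 to 68589301) with a transcript of 144 bases, had 19.9 FPKM, but from only 11 fragments, and was listed at 0 at 28. The remaining 3 had 10 to 15.6 fragments at 38 somite pairs.

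Of the 9 genes called higher at 28 somite pairs as deposited, the 3 with most fragments were lost as calls under both scalings. An outer gene on scaffold GL343364.1 (1058390 to 1070888), which holds a model of 69 bases, had 52.5 FPKM at 38 and 116 FPKM at 28 somite pairs, a fragment ratio of 0.45 (exact 95% interval 0.42 to 0.48). One on scaffold GL343563.1 (123118 to 139652), which holds a model of 76 bases, had 23.1 and 48.5 FPKM, a ratio of 0.49 (0.45 to 0.52). One on scaffold GL343479.1 (84936 to 166029) had 20.7 and 47.2 FPKM, with a fragment ratio of 0.50 (0.46 to 0.54). By fragments, 867 and 1860, that gene fell just short of 2-fold even without scaling. With the median of all genes at 0 the log2 differences of these 3 genes were -0.93, -0.84 and -0.95, short of 2-fold. ENSACAG00000005359, an outer gene on chromosome 3 (36201683 to 36229936), had 3.11 FPKM from 42 fragments at 38 somite pairs and 17.1 FPKM from 247 at 28, a ratio of 0.18 (0.13 to 0.25). It stayed called under both scalings, with differences of -2.02 and -1.98. A gene on chromosome 3 (69817557 to 69835148), also called under both, was listed at 0 at 38 somite pairs and had 13.7 FPKM from 42 fragments at 28.

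The stage differences of partners were often unlike. Over the 93 pairs with both genes expressed, the stage differences of the partners lay a median of 0.83 apart on the log2 scale, and they lay at least 2-fold apart in 40 pairs (43.0%). They had the same sign in 47 pairs (50.5%), 40 with both lower at 38 somite pairs and 7 with both higher. These signs are as deposited, where all expressed genes had a median difference of -0.18. Signs after centring are not given here, so the 40 and 7 cannot be read apart from that offset. Pearson's r over the 93 pairs was -0.03, a description of pairs that share both libraries. No pair had both partners called in the same direction, and none had them called in opposite directions. Calls were rare, 7 and 9 of the 809 expressed overlapping genes. At that rate hardly any pair could have had 2 calls, so these counts of 0 say little about partners. Over all 1130 overlapping pairs, expressed or not, a call of 1 partner was found in 18. Depth limits the comparison of stage differences: in the 9 pairs with 100 fragments or more in every value, the median distance was 0.48, 2 pairs were past 2-fold, and 5 had the same sign. Of these 9 pairs 8 were nested. The outer gene was lower at 38 somite pairs in 7 of the 8 by FPKM, as deposited. The difference of the inner gene lay above that of the outer gene in 6. In 1 of the 7, on chromosome 1 (184821674 to 184858905, with 2 transcripts), fragments went the other way, 169 at 38 somite pairs and 150 at 28, a ratio of 1.21 (exact 95% interval 0.97 to 1.52).

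**Figure D5:**
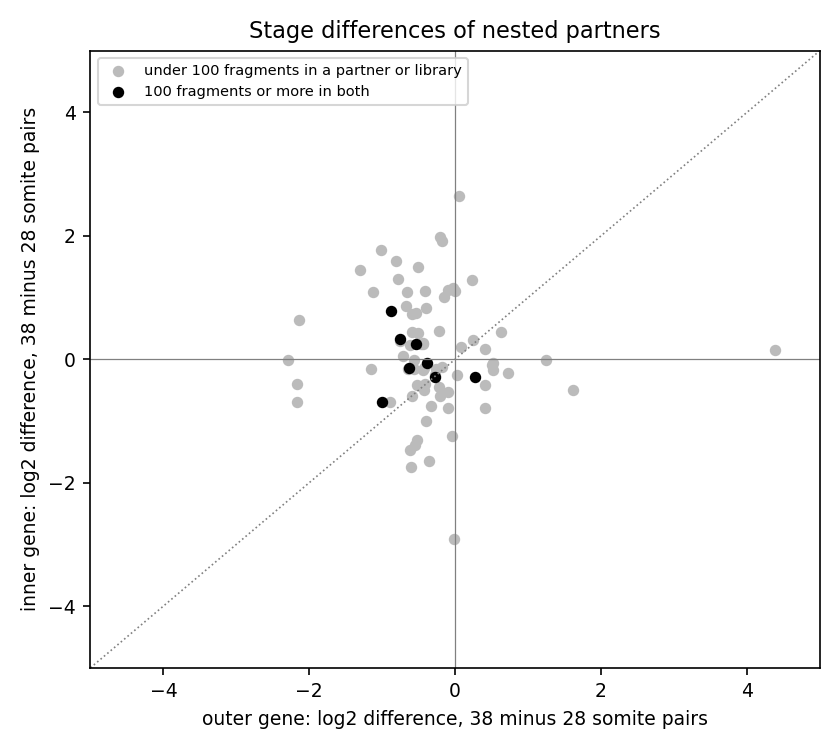
Log2 difference of 38 minus 28 somite pairs for the inner gene against that for the outer gene, for nested pairs with both partners expressed; black points are pairs with 100 fragments or more in every value, grey points have fewer in a partner or library, and the dotted line marks equal differences. The points do not follow the line, and over all 93 pairs, partly overlapping ones included, Pearson's r is -0.03.

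Opposite differences of 2-fold or more in each partner were found in 3 nested pairs, as deposited. On scaffold GL343282.1 the inner gene (952236 to 956320) had 4.75 FPKM from 85 fragments at 38 somite pairs and 0.68 FPKM from 13 at 28, a fragment ratio of 7.02 (exact 95% interval 3.89 to 13.7). Its outer gene (932537 to 975573) had 2.36 FPKM from 198 fragments at 38 somite pairs and 5.77 FPKM from 515 at 28. The inner gene was higher and the outer gene lower at 38 somite pairs. On chromosome 4 an inner gene (66188075 to 66189286) had 1.66 and 0.25 FPKM from 22.5 and 3.65 fragments, the second below the 10 fragments at which values were usually listed. Its outer gene (65881915 to 66287050) had 6.58 and 15.5 FPKM from 265 and 656. In the other pair, on chromosome 2 (142249652 to 142274542 for the outer gene), each partner was listed at 0 at 1 stage. The log2 differences of the outer genes on scaffold GL343282.1 and chromosome 4 were -1.01 and -1.12, only just past 2-fold. Their differences under the scalings are not given here.

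Among pairs with 100 fragments or more in every value, partners shared their direction in some loci and not in others. On chromosome 3 an inner gene in 1 block of 461 bases (39109486 to 39109946) had 63.3 FPKM from 334 fragments at 38 somite pairs and 103 FPKM from 583 at 28, a ratio of 0.62 (0.54 to 0.70). Its outer gene (39103969 to 39116288) had 21.9 and 44.7 FPKM from 283 and 615 fragments, a ratio of 0.49 (0.43 to 0.57). Both were lower at 38 somite pairs. On scaffold GL343212.1 the inner gene (2149026 to 2156519) had 65.2 FPKM from 320 fragments at 38 somite pairs and 37.7 FPKM from 199 at 28, while its outer gene (2025804 to 2353959) had 5.15 and 10.3 FPKM from 979 and 2088. Here the inner gene was higher and the outer gene lower. Other pairs had fewer fragments. An inner gene on chromosome 3 (36216950 to 36217966) had 7.45 and 4.46 FPKM from 72 and 46 fragments, a ratio of 1.68 (1.14 to 2.49), inside ENSACAG00000005359, whose ratio was 0.18. The host of the 487 FPKM gene on chromosome 3 also differed from its partner: its ratio was 0.13 (0.060 to 0.25), from 10 fragments, at the listing floor, and 83, and that of the inner gene was 0.99 (0.95 to 1.04).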

How the data were processed

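RNA of 2 whole Anolis carolinensis embryos (38 and 28 somite pairs, 1 library each) was extracted with a mirVana kit, made into libraries with the NuGEN Ovation RNA-Seq kit and read on a HiSeq 2000, per the labels' protocols and the series design. Untrimmed reads were aligned with TopHat to AnoCar2.0, per the series design, and the submitters' processing notes also name Cufflinks. The sources used here give no version or annotation. The values used are FPKM per gene and per transcript, as the authors deposited them. The deposited tables also hold a fraction per transcript and a coverage signal, per the file headers, and neither entered a comparison. The deposited interval equalled FPKM plus or minus 2 square roots of it for 99.1% of overlapping genes in each library, so it carries no depth.

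Genes were grouped into loci by the identifier in the 28 somite pair table. Transcripts of shared loci were assigned to genes by span and FPKM; 4 stayed unresolved, which left 10 overlapping genes without a length. Fragments are FPKM times effective length times the mapped total, which was found from the spacing of low values; above 1000 fragments the digits do not resolve a fraction. Differences are log2(FPKM + 1), 38 minus 28 somite pairs, which understates low genes. A gene was expressed at 1 FPKM or more in either library. Fragment ratios are per mapped fragment, with exact Clopper-Pearson 95% intervals that cover counting error only.

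The overlapping genes, classes and lists were chosen with earlier results of these data known. Pairs were named from those with both genes at 5 FPKM or more in either library, the 5 first by difference between partners, by gap and by level of the lower partner, and genes as the 8 called of highest FPKM in each direction. Other loci were chosen after their values were seen. At most 2 identifiers are given per direction. Positions are 1-based on AnoCar2.0. Of the 2052 identifiers, 0 matched the reference table of names (assembly rAnoCar3.1), and no sequence was read. Steps were tested on simulated data. Alternatives covered pseudocount, filters, scaling, the rule and depth. The software was scipy 1.17.1, pandas 2.3.3, numpy 2.4.6 and matplotlib 3.10.9 under Python 3.11.15.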

Additional observations from a re-analysis of the deposited data

How the results depend on the processing

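No paired analysis was possible because there was a single library per stage and no result comes from a test. Of 79 alternative values, 51 stayed within a 95% interval taken over genes or pairs (within 1.5 times for a count) and 28 moved. That interval holds no replicate error. A change of sign was looked for only in the median stage difference of overlapping genes, and none was found.

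The median stage difference of overlapping genes was -0.15 with a pseudocount of 5 FPKM, -0.29 from 5 FPKM up, 0 with no filter, -0.10 with equal sums, -0.050 with all genes centred and -0.28 from 100 fragments up. Genes higher at 38 somite pairs numbered 50 by 2-fold alone, 0 where both libraries were above 0 and 33 by the fragment rule. Genes higher at 28 numbered 4 with either scaling, 52 by 2-fold alone, 5 at 4-fold and 59 by the fragment rule. The inner gene was lower in 51.6% of pairs at each stage from 5 FPKM up, and in 52.9% at 38 somite pairs with whole fragments only. The size of the gap was 1.23 (38 somite pairs) and 1.67 (28) with a pseudocount of 5 and 1.44 (38) from 5 FPKM up. Among pairs sharing at least 100 bases, 59.6% and 58.1% of pairs had 1 partner at 0. The distance between partners was 0.46 with a pseudocount of 5, 0.31 with no filter and 0.48 from 100 fragments up. Opposite pairs numbered 3 by 2-fold alone, as deposited. On chromosomes 1 to 6 alone, outer genes of the shortest models had medians of 12.9 and 16.5 FPKM.

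Depth limits the short models: a 0 can hide 9 fragments. Outer spans are those of the annotation, and 8 of the 186 outer genes spanning 100 kb or more had transcripts under 500 bases.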

Other observations

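The 2 largest shared loci held genes of very different levels. The locus of 12 genes on chromosome 1 (92523279 to 92885920) is set by an outer model of 267 bases that was listed at 0 in both libraries, and 6 of its genes were above 0 at 38 somite pairs and 5 at 28. Of its 11 inner genes, 4 were models of 118 to 124 bases at 0 in both libraries. A spliced inner gene (92659028 to 92699444) had 13.5 FPKM from 678 fragments at 38 somite pairs and 21.5 FPKM from 1153 at 28. Its neighbours had 2.27 and 5.68 FPKM (92749810 to 92781716) and 4.74 and 7.43 FPKM (92790491 to 92815843). All 3 were lower at 38 somite pairs. A model in 1 block (92554360 to 92555331) went the other way, with 2.31 FPKM from 20 fragments at 38 somite pairs and a listed 0 at 28. So did a spliced inner gene (92824718 to 92856785), with 0.63 FPKM from 16 fragments at 38 somite pairs and 0.40 FPKM from 11 at 28. The last gene above 0 (92865570 to 92881020) had 1.32 and 1.52 FPKM from 36 and 44 fragments.

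The locus of 9 genes on chromosome 2 (112539559 to 112848836) had 5 genes above 0 in each library, which summed to 453 FPKM at 38 somite pairs and 415 at 28, nearly all from the inner gene of 431 and 386 FPKM. That gene is itself the host of a model of 129 bases, which was at 0 in both libraries. A model in 1 block beside it (112678398 to 112678973) had 63 fragments at 38 and 122 fragments at 28 somite pairs. A locus of 7 genes on scaffold GL343324.1 (464498 to 503614) had no gene above 0 at either stage. Values below 10 fragments were rarely listed, so each 0 there can hide up to 9 fragments.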
